A study of Mus musculus with 3 samples.

Results

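Rbfox1 and Rbfox2 encode RNA-binding proteins that regulate alternative splicing in heart, skeletal muscle and brain, and the transcripts of both genes were examined as targets of CELF1. Every CELF1 CLIP cluster that the deposited files assign to the Entrez identifier of Rbfox1 (268859) or Rbfox2 (93686) was used. This gave 221 of 72222 clusters, 152 in Rbfox1 and 69 in Rbfox2, from 2 of 8037 genes with a cluster. A cluster is a stretch of a transcript where more crosslinked reads lay than the length and expression of its gene would give.

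The clusters came from CLIP-seq, in which UV light joins proteins to RNA in place before the protein is pulled down and its RNA sequenced. The 3B1 antibody to endogenous CELF1 was used on heart ventricle and muscle of 16-week-old C57/BL6 mice, and on cultured C2C12 myoblasts, mouse muscle precursors kept as a cell line. No transgene, mutation or treatment is given for any of them, and which muscle was taken is not named. There were 3 libraries, 1 per source, so no value below has a replicate, and every test compares libraries and not tissues.

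Rbfox proteins bind the sequence GCAUG in introns. Bound downstream of an alternative exon they usually favour its inclusion, and bound upstream they usually favour its skipping. Rbfox1 is found in heart, skeletal muscle and neurons, Rbfox2 is found widely, and Rbfox3 mainly in neurons. The genes are known to be spliced at exons of their own: skipping of an exon of 93 nt removes part of the RNA recognition motif, the domain that binds RNA, and Rbfox proteins themselves favour that skipping. CELF1 binds UGU-containing RNA and acts on both splicing and mRNA decay.

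The intron that follows the 93-nt exon held a group of clusters in both genes, so sequences of the exon and of this intron are shown first. The exon had the same length in the 2 genes, and 86 of 93 bases (92.5%) were identical. The 7 bases that differ are in capitals below, written 5′ to 3′ on the strand of the gene from the NCBIM37 (mm9) assembly. Neither exon contained TGT, and no cluster of any library overlapped either of them. Rbfox2 has a further annotated exon of 93 nt, at chr15:76929670-76929762, with no cluster within 1000 nt in any library. Here the 93-nt exon of Rbfox2 is always the one printed below.
Rbfox1 exon of 93 nt, chr16:7292278-7292370 (+): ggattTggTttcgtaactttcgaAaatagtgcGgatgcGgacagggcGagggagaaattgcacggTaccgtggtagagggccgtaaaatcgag
Rbfox2 exon of 93 nt, chr15:76936007-76936099 (-): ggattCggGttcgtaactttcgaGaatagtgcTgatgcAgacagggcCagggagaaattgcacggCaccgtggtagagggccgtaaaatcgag

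The next lines give intronic stretches downstream of this exon that lay within a cluster of both heart and muscle, the 3 longest of each gene, with every TGT and GCATG in capitals. The last line is a muscle cluster that ended 10 nt before the following exon of 61 nt in Rbfox1. It is shown because it contained neither motif.
Rbfox1 intron, chr16:7293511-7293573 (+): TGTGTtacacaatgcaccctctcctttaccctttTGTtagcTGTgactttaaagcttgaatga
Rbfox1 intron, chr16:7293614-7293668 (+): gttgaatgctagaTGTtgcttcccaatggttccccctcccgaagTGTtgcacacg
Rbfox1 intron, chr16:7293692-7293750 (+): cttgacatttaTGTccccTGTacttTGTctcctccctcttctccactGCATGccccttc
Rbfox2 intron, chr15:76935904-76935959 (-): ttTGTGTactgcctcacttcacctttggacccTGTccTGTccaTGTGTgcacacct
Rbfox2 intron, chr15:76935812-76935895 (-): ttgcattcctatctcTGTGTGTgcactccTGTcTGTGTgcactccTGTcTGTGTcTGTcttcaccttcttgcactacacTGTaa
Rbfox2 intron, chr15:76934711-76934772 (-): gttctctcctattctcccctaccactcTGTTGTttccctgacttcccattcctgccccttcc
Rbfox1 muscle cluster, chr16:7294107-7294152 (+): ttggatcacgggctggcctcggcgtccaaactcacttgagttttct

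A second set shows the kinds of sequence found elsewhere in these transcripts, with the same capitals. It includes heart clusters far upstream in Rbfox1, and the 3′ UTR window common to all 3 libraries.
Rbfox1 distal heart cluster, chr16:5889228-5889268 (+): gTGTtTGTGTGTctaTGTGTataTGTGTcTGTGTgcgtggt
Rbfox1 heart cluster with GCATG, chr16:6511977-6512012 (+): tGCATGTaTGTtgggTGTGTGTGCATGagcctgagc
Rbfox2 intron before the 89 nt exon, heart and muscle, chr15:76916631-76916697 (-): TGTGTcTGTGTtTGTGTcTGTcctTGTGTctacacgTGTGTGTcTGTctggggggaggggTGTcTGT
Rbfox2 intron, heart and myoblast, chr15:77010166-77010188 (-): catggtctcaccaTGTaTGTctg
Rbfox2 3' UTR, 30 nt window common to all 3 libraries, chr15:76912852-76912881 (-): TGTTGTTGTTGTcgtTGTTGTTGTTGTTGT
Rbfox1 3' UTR, 30 nt window of the most distal muscle cluster, chr16:7412464-7412493 (+): aTGTGTatatcTGTctttagaaattagTGT

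Rbfox1 carried more of the muscle clusters than of the heart clusters, and no cluster in myoblasts. The count was 101 of 24844 clusters in muscle, 51 of 42263 in heart and 0 of 5115 in myoblasts. Only muscle and heart held Rbfox1 clusters, and the muscle number was the higher although that library had fewer clusters in all. By number of clusters Rbfox1 ranked 3 among 5341 genes with a cluster in muscle and 49 among 6857 in heart. The share was 0.407% in muscle (exact Clopper-Pearson 95% interval 0.331 to 0.494) and 0.121% in heart (0.0899 to 0.159), a ratio of 3.37. The odds ratio was 3.38 (95% interval 2.39 to 4.83; two-sided Fisher's exact test, adjusted p = 2.54e-10 over 7625 genes). In that comparison 0.852% of the genes tested were called higher in muscle, and 4.14% of the 821 genes with 20 clusters or more in the pair. More RNA of a gene in a tissue, more cells that make it and more binding per RNA cannot be told apart from the number of clusters.

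The absence of Rbfox1 from the myoblast library was less firm, because few clusters were called in that library. A count of 0 of 5115 clusters allows a share of up to 0.0721% (exact 95% upper limit). The muscle share was higher (95% lower limit of the odds ratio 5.55, adjusted p = 1.19e-05 by Fisher's exact test over 6153 genes). In that comparison 0.146% of the genes tested were called higher in muscle, and 4.64% of the 194 genes with 20 clusters or more in the pair. The heart share did not pass (95% lower limit of the odds ratio 1.61 before adjustment, adjusted p = 0.28 by Fisher's exact test over 7390 genes). There 0.176% of the genes tested were called higher in heart, and 2.98% of the 436 genes with 20 clusters or more. Among clusters of at least 40 nt, of which myoblasts had only 1987, the muscle comparison no longer passed either (adjusted p = 0.14 by the same exact test).

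Rbfox2 had clusters in all 3 libraries, at shares that the tests did not separate. Its clusters numbered 37 for heart, 23 for muscle and 9 for myoblasts. The shares were 0.0875% of heart clusters (0.0616 to 0.121), 0.0926% of muscle clusters (0.0587 to 0.139) and 0.176% of myoblast clusters (0.0805 to 0.334). The intervals of all 3 overlapped. Muscle against heart gave an odds ratio of 1.06 (0.6 to 1.83, adjusted p = 1, Fisher's exact test). Heart against myoblasts gave 0.497 (0.235 to 1.17, adjusted p = 0.734, Fisher's exact test) and muscle against myoblasts 0.526 (0.234 to 1.29, adjusted p = 0.753, Fisher's exact test). Differences inside these intervals were not detectable with these numbers of clusters. Of the 9 myoblast clusters 8 were under 40 nt wide, where 61.2% of all myoblast clusters were, against 2 of 37 in heart and 6 of 23 in muscle. These intervals and tests cover counting error only, and clusters of a single gene share its RNA and are not independent.

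**Figure D1:**
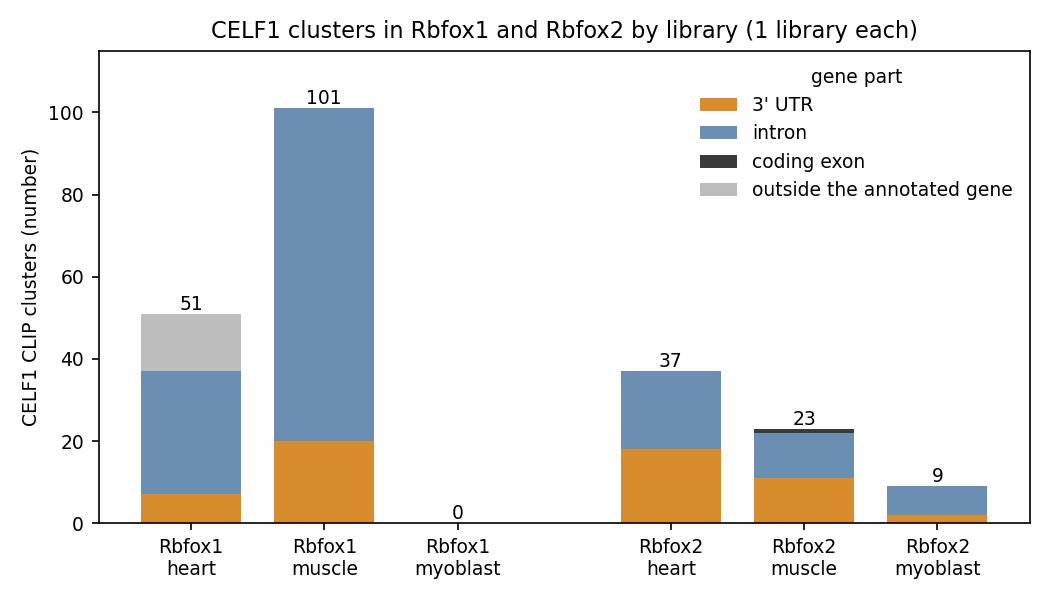
Number of CELF1 clusters (y axis) in Rbfox1 and Rbfox2 in each library (x axis, 1 library per bar), divided by colour into the part of the gene they lie in. The Rbfox1 bars reach 101 in muscle, 51 in heart and 0 in myoblasts, mostly in introns, and the 14 heart clusters in grey lie outside the annotated gene.

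Most Rbfox1 clusters were intronic, while Rbfox2 divided nearly evenly between introns and the 3′ UTR in the tissues. In heart 30 Rbfox1 clusters were in introns, 7 in the 3′ UTR and 14 upstream of the annotated gene. In muscle 81 were in introns and 20 in the 3′ UTR. Introns took 58.8% of Rbfox1 clusters in heart, close to the 58.3% over all genes. In muscle they took 80.2%, beside 43% over all genes. For Rbfox2 the heart clusters were 19 intronic and 18 in the 3′ UTR, the muscle clusters 11 intronic, 11 in the 3′ UTR and 1 on the coding part of the last exon, and the myoblast clusters 7 intronic and 2 in the 3′ UTR. Coding exons thus held 1 of the 221 clusters and 5′ UTRs none.

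The 3′ UTR took 13.7% of Rbfox1 clusters against 48.6% of Rbfox2 clusters in heart (odds ratio 0.172, 0.0515 to 0.517; Fisher's exact test, adjusted p = 0.00716 over 23 tests). In muscle it took 19.8% against 47.8% (odds ratio 0.273, 0.0939 to 0.79; Fisher's exact test, adjusted p = 0.0461). Across all genes the 3′ UTR share was 33% in heart and 50.1% in muscle, so Rbfox1 lay below it in both. The call in heart was lost when clusters less than 50 nt apart were merged (adjusted p = 0.0712), and both were lost with clusters of at least 40 nt (adjusted p = 0.0807 in heart and 0.0976 in muscle, exact tests). The annotated introns sum to 599027 nt in Rbfox1 and 220652 nt in Rbfox2, and the main 3′ UTRs are 2789 and 5175 nt long. The part of these lengths in the difference was not tested.

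Clusters per length were counted without correction for the number of clusters in each library, so they follow library size as well, and only genes or parts within a library can be ranked by them. The Rbfox1 3′ UTR held 7.17 clusters per kb in muscle and 2.51 in heart, and its introns 13.5 and 5.01 per 100 kb. The Rbfox2 3′ UTR held 2.13 clusters per kb in muscle, 3.48 in heart and 0.386 in myoblasts, and its introns 4.99, 8.61 and 3.17 per 100 kb. Within each gene the 3′ UTR share did not pass a test between libraries. For Rbfox1 muscle was 6.08 percentage points above heart (adjusted p = 0.72), for Rbfox2 the difference of muscle minus heart was -0.823 points (adjusted p = 1) and muscle was 25.6 points above myoblasts (adjusted p = 0.477, Fisher's exact tests).

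Along Rbfox1 the heart and muscle clusters began at different places. Rbfox1 is annotated in GENCODE vM1 at chr16:6809315-7412572 on the plus strand, with 7 transcripts that begin at 3 positions, 6809315, 7069928 and 7218346. The promoter sequences of RefSeq for this gene matched mm9 exactly once each and place starts at 7069928 and at 5884886, which is 1185 kb further upstream. Of the 51 heart clusters 18 (35.3%, exact 95% interval 22.4 to 49.9) lay between these RefSeq starts. Of the 101 muscle clusters 0 did (interval 0 to 3.59%). The pattern was noticed in these data and is given with no test.

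The first heart cluster, at chr16:5889228-5889268, lay 4.34 kb downstream of the distal RefSeq start. The remaining clusters upstream of 7069928 were spread over the next Mb, the last at chr16:6946924-6946971, and 14 of the 18 lay before the first GENCODE start. The first muscle cluster began 3.56 kb after the start at 7069928, at chr16:7073489-7073535, and the first heart cluster past that start began 7.55 kb after it. The upstream heart clusters had a median width of 38.5 nt, and 10 of 18 were under 40 nt. The 33 further heart clusters had a median of 51 nt with 4 under 40 nt. All 18 contained TGT, and 2 contained GCATG.

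From 7069928 onward the heart clusters fell mostly on muscle clusters. Of these 33 heart clusters 29 (87.9%) overlapped a muscle cluster, whereas none of the 18 upstream could, muscle having none there. In the first long intron, of 148167 nt, muscle had 47 clusters and heart 14, of which 11 were met by muscle. From the start at 7218346 on, muscle had 54 and heart 19, of which 18 were met. Leaving out the upstream clusters, an alternative chosen after these positions were seen, removed heart clusters alone. The ratio of the muscle to the heart share of Rbfox1 could therefore only rise, to 5.2. That run is no check of the difference.

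**Figure D2:**
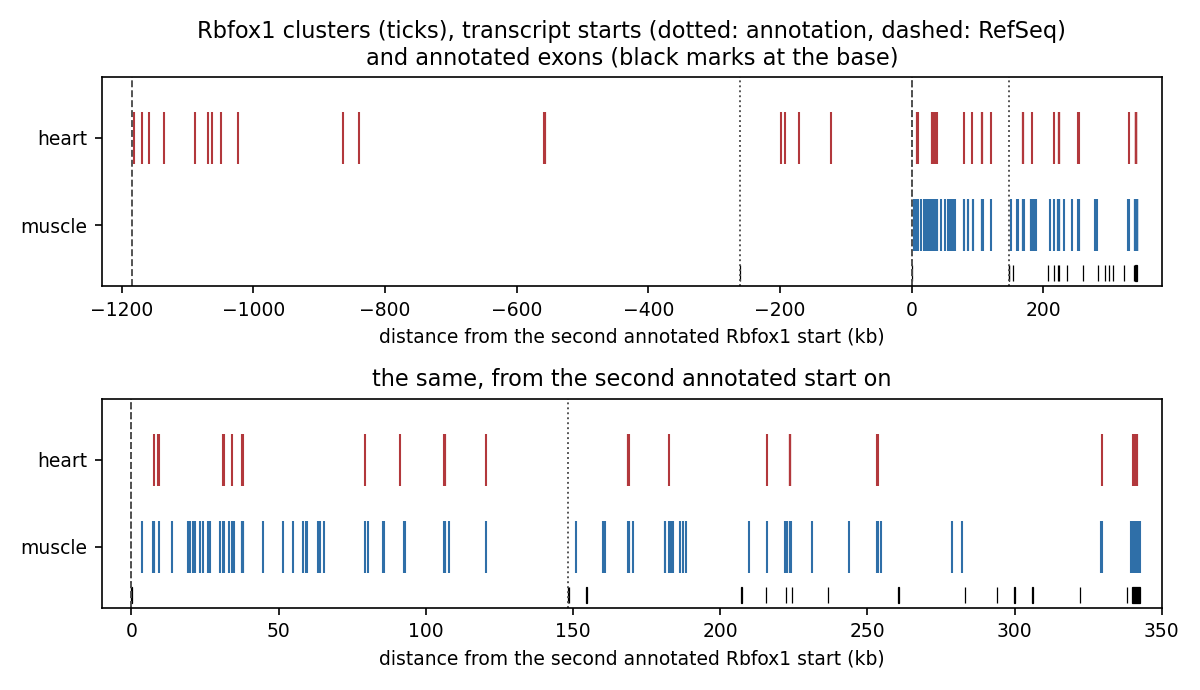
Position of each Rbfox1 cluster (vertical tick) in heart and muscle, as distance in kb from the start at chromosome 16 position 7069928 (x axis), over the whole stretch with clusters (top) and from that start on (bottom). The 18 heart clusters left of 0 have no muscle cluster among them, and to the right of 0 nearly every heart tick stands above a muscle tick.

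In both genes the intron between the 93-nt and 61-nt exons had more clusters per length than any of the other 16 annotated introns, in heart and in muscle. This intron was singled out after its values were seen, so the densities are a description. In Rbfox1 it spans chr16:7292371-7294162 (1792 nt) and held 4 heart and 6 muscle clusters, or 2.23 and 3.35 per kb. The other Rbfox1 introns together held 0.0435 per kb in heart and 0.126 in muscle. In Rbfox2 it spans chr15:76933370-76936006 (2637 nt, minus strand) and held 5 clusters in each tissue, 1.9 per kb, against 0.0642 in heart and 0.0275 in muscle over the other introns. Myoblasts had no cluster in it, with 7 intronic Rbfox2 clusters in all.

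The clusters sat differently within the intron. In Rbfox2, 3 clusters of each tissue followed the 93-nt exon closely, the first of them 47 nt downstream in heart and 37 nt downstream in muscle, and each heart cluster overlapped a muscle cluster. A second group of 2 clusters per tissue lay more than 1 kb downstream. In Rbfox1 the clusters next to the exon were found in muscle alone, 49 and 247 nt downstream and, in the intron before it, 245 nt upstream. The nearest heart cluster to the Rbfox1 exon was 1140 nt away. All 4 heart clusters of that intron lay together at chr16:7293511-7293810, 352 to 589 nt before the 61-nt exon, and all 4 overlapped muscle clusters.

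This intron holds GCATG 4 times in Rbfox1 and 3 times in Rbfox2, counted on the gene's strand, and TGT 55 and 84 times. The stretch at chr16:7293692-7293750, printed above and bound in both tissues, includes 1 of the GCATG copies together with 3 TGT. A match of letters is a description of the sequence and not a measured Rbfox site.

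**Figure D3:**
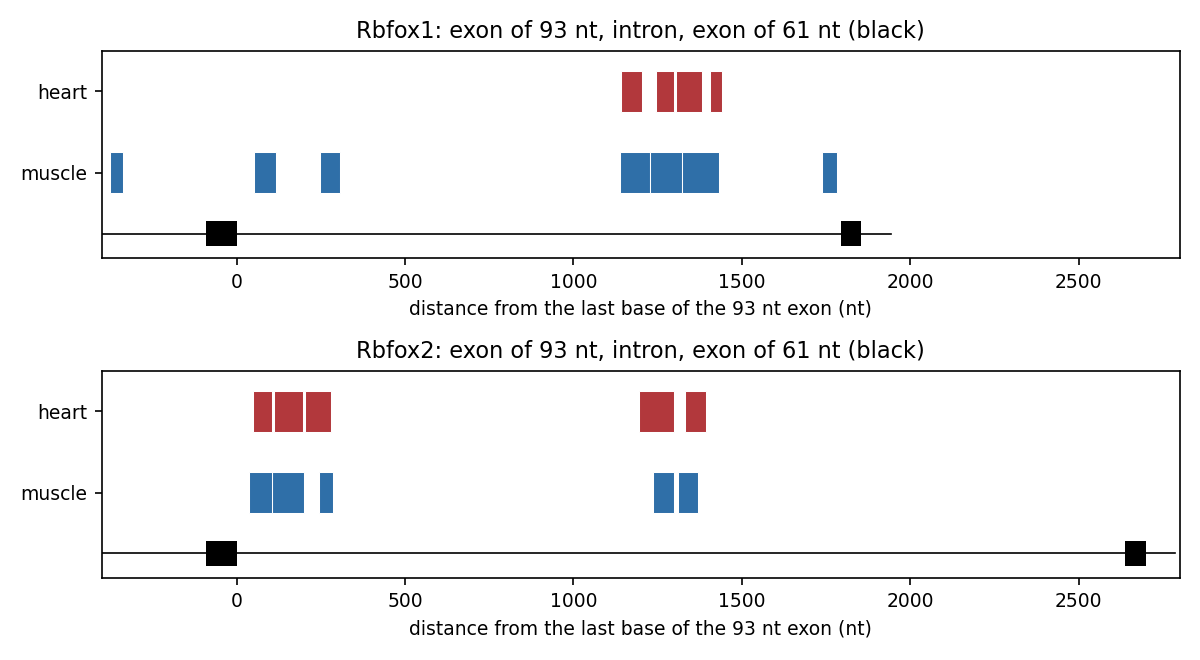
Clusters of heart and muscle (coloured bars, drawn to their width) around the 93-nt exon of Rbfox1 (top) and Rbfox2 (bottom), as distance in nt from the exon's last base (x axis), with exons in black. Rbfox2 clusters of both tissues begin within 50 nt of the exon, and in Rbfox1 only muscle has clusters there while heart clusters gather beyond 1000 nt.

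Other exon neighbours differed between the genes. In Rbfox1 an exon of 54 nt (chr16:7285571-7285624) was followed by a cluster 21 nt downstream in muscle and 33 nt downstream in heart. In Rbfox2 the exon of 89 nt (chr15:76916497-76916585) was preceded by a TGT-rich cluster 35 nt upstream in muscle and 45 nt upstream in heart, with 16 and 15 TGT. Both genes also have a pair of exons of 40 and 43 nt, of which the 43-nt exon is known to be used in muscle. No cluster of any library lay within 1000 nt of either exon in either gene. The same held in each library for most other exons of both genes, so it does not set this pair apart. In Rbfox1 the exon pair stood in a stretch without clusters of 76.1 kb in heart and 47.1 kb in muscle.

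Most intronic clusters of Rbfox1 were far from exons. Within 300 nt of an exon lay 1 of 30 Rbfox1 intronic clusters in heart (3.33%, exact interval 0.0844 to 17.2) and 6 of 81 in muscle (7.41%, 2.77 to 15.4). The figure over all genes was 13.3% in heart and 15.8% in muscle. For Rbfox2 it was 4 of 19 in heart (21.1%, 6.05 to 45.6), 4 of 11 in muscle (36.4%, 10.9 to 69.2) and 0 of 7 in myoblasts, beside 17% over all myoblast clusters in introns. The value over all genes lay above the interval of Rbfox1 in muscle and inside that of Rbfox1 in heart and those of Rbfox2 in both tissues. The median distance to an exon was 26.2 kb in heart and 23 kb in muscle for Rbfox1, and 3.65 and 1.19 kb for Rbfox2. Over all genes it was 3.6 kb in heart and 2.68 kb in muscle.

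Rbfox2, annotated at chr15:76909420-77137483 on the minus strand, had a heart group in a long upstream intron. The intron of 77574 nt at chr15:76984243-77061816 held 8 heart clusters, 1 muscle cluster and 1 myoblast cluster. The muscle cluster, chr15:77018403-77018439, lay inside a heart cluster, and the myoblast cluster overlapped a further one at chr15:77010166-77010188. The most upstream intron, of 74926 nt, held 1 heart, 2 muscle and 3 myoblast clusters. None of those 3 myoblast clusters met a tissue cluster.

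**Figure D4:**
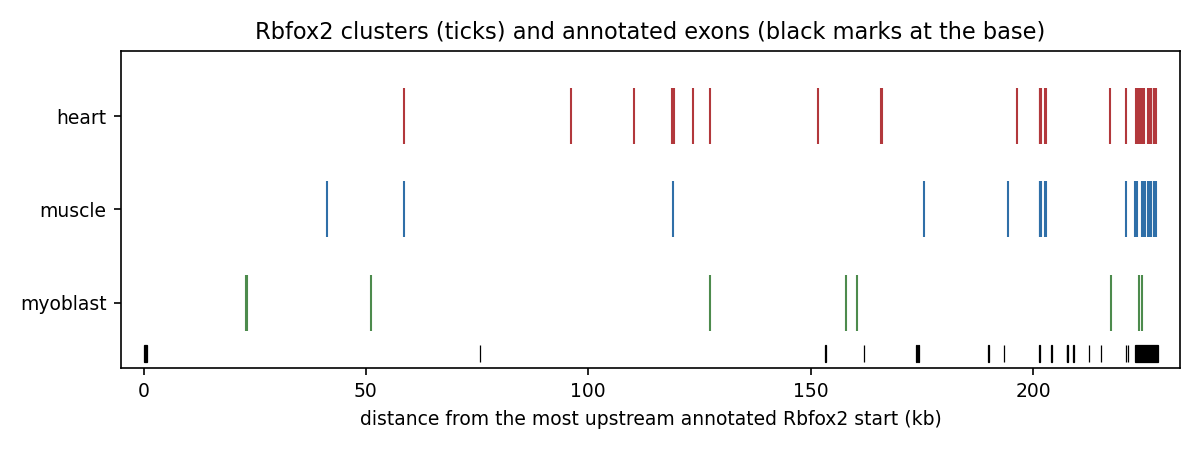
Position of each Rbfox2 cluster (vertical tick) in heart, muscle and myoblasts, as distance in kb from the most upstream annotated start (x axis), with exons in black at the base. Heart has 8 ticks in the second long intron where muscle and myoblasts have 1 each, and all 3 libraries have clusters in the last exon at the right.

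In the Rbfox1 3′ UTR the muscle clusters reached closer to the transcript end than the heart clusters. The main 3′ UTR is at chr16:7409784-7412572. Heart clusters covered 502 of its 2789 nt (18%) and muscle clusters 1464 nt (52.5%). In 4 equal lengths from the stop codon on, heart had 2, 3, 2 and 0 clusters and muscle had 5 in each. The last heart cluster ended at 7411525, and 8 of the 20 muscle clusters lay past it, the last at chr16:7412386-7412501. All 7 heart clusters overlapped a muscle cluster. With 7 clusters in heart, an empty last stretch has little counting support, and no test was made of this pattern.

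In the 5175-nt Rbfox2 3′ UTR clusters were spread along the whole length in both tissues. In 4 equal lengths heart had 3, 5, 5 and 5 clusters and muscle 2, 3, 4 and 2. Heart covered 1384 nt (26.7%) and muscle 816 nt (15.8%). Of 18 heart clusters 9 met a muscle cluster, and of 11 muscle clusters 8 met a heart cluster. The 2 myoblast clusters covered 146 nt. The one at chr15:76912826-76912934 overlapped clusters of heart and muscle and had 14 TGT, and the one at chr15:76913624-76913660 overlapped a heart cluster. The first of these was the only site in Rbfox1 or Rbfox2 bound in all 3 libraries, and the run of TGT printed above lies within it.

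**Figure D5:**
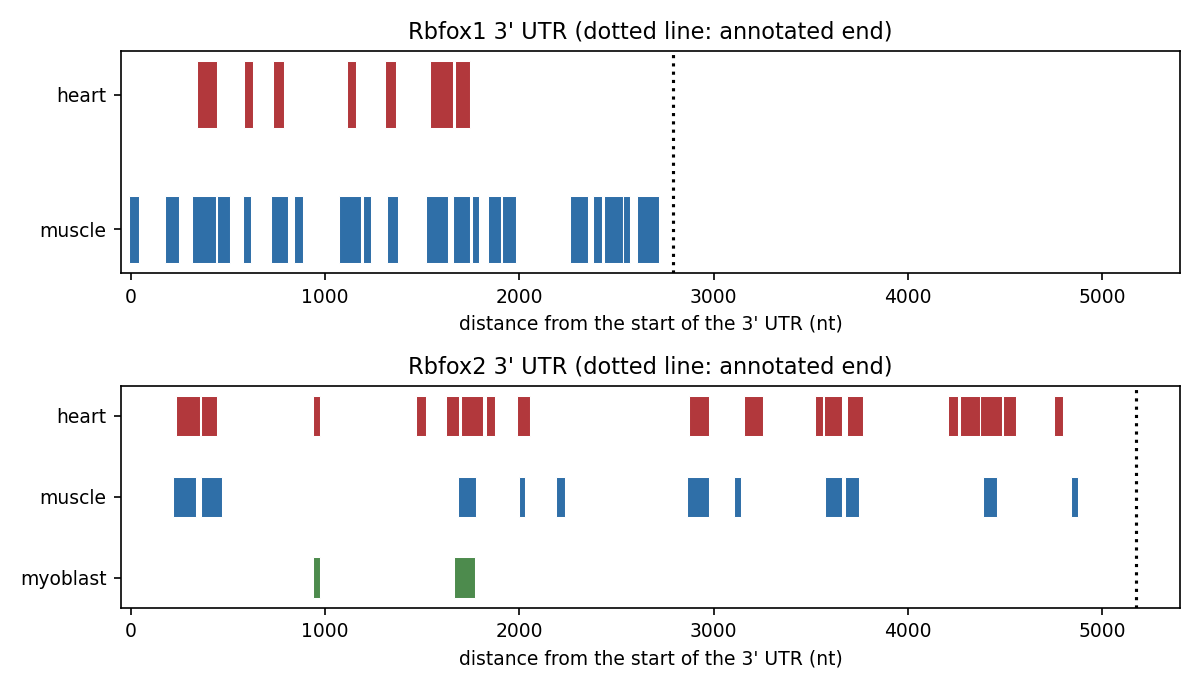
Clusters (coloured bars, drawn to their width) along the 3′ UTR of Rbfox1 (top) and Rbfox2 (bottom) in each library, as distance in nt from the start of the 3′ UTR (x axis), with the annotated end dotted. Rbfox1 heart clusters stop 1 kb or more before the end while muscle clusters go on, and Rbfox2 myoblast clusters lie on heart clusters.

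Sharing of positions was compared with that of all other genes in the same gene part. An overlap of at least 1 bp on the same strand counted. Of the 30 Rbfox1 intronic clusters of heart 22 (73.3%, exact interval 54.1 to 87.7) met a muscle cluster, against 18.9% for other genes (odds ratio 11.8, 5.06 to 30.7; Fisher's exact test, adjusted p = 3.37e-09). The 30 leave out the 14 heart clusters upstream of the annotated gene, which are intronic only if the distal RefSeq start is used. None of those 14 met a muscle cluster, so the share would be lower with them. In the opposite direction 22 of 81 muscle clusters (27.2%, 17.9 to 38.2) met a heart cluster, against 43.7% for other genes (odds ratio 0.48, 0.28 to 0.797; Fisher's exact test, adjusted p = 0.0246). The second call was lost when an overlap had to cover 50% of both clusters (adjusted p = 0.104) and with clusters of at least 40 nt (adjusted p = 0.124, exact tests). The 2 directions go with the numbers of clusters in the gene, 101 in muscle and 51 in heart, whose part in the sharing was not tested.

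The 3′ UTR comparisons of Rbfox1 and all comparisons of Rbfox2 did not pass. All 7 heart 3′ UTR clusters of Rbfox1 met a muscle cluster, against 53.8% for other genes (adjusted p = 0.0672, exact test), and 7 of 20 muscle ones met a heart cluster, against 60.9% (adjusted p = 0.0712, exact test). For Rbfox2 8 of 19 intronic heart clusters met muscle (42.1%, 20.3 to 66.5, against 18.9% for other genes, adjusted p = 0.0672, exact test) and 8 of 11 intronic muscle clusters met heart (72.7%, 39 to 94, against 43.6%, adjusted p = 0.141, exact test). The adjusted p of the 3′ UTR comparisons of Rbfox2 was 0.987 for heart clusters and 0.737 for muscle clusters (exact tests). Over all gene parts 18 of 37 heart clusters, 7 of 23 muscle clusters and 6 of 9 myoblast clusters of Rbfox2 met no cluster of another library. For Rbfox1 these were 22 of 51 in heart and 72 of 101 in muscle. Over all genes 30.9% of heart clusters met a muscle cluster and 4.19% a myoblast cluster. Of all muscle clusters 52.8% met heart and 5.29% met myoblasts. Of all myoblast clusters 33.9% met heart and 25% met muscle. The like-for-like values, over all gene parts, were 56.9% of Rbfox1 and 45.9% of Rbfox2 heart clusters that met muscle. Of muscle clusters 28.7% in Rbfox1 and 69.6% in Rbfox2 met heart. The share of all clusters that met neither other library was not counted. The counts above of Rbfox1 and Rbfox2 clusters that met no other library therefore cannot be called high or low.

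Nearly all clusters held the CELF1 core motif, as did clusters in general. Motifs were counted on the strand of the RNA. TGT was in 51 of 51 heart and 96 of 101 muscle clusters of Rbfox1, and in 36 of 37 heart, 21 of 23 muscle and 7 of 9 myoblast clusters of Rbfox2. Over all genes it was in 98.3% of heart, 98.4% of muscle and 86.4% of myoblast clusters. No comparison of TGT passed, with adjusted p from 0.073 to 1 (Fisher's exact tests). TGTGT and TTTGT both include TGT. TGTGT was in 47.1% of heart and 50.5% of muscle clusters of Rbfox1, beside 50.7% and 45.3% over all genes. TTTGT was in 31.4% and 39.6%, beside 39.5% and 44%.

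The Rbfox motif GCATG was in 5 of 51 heart clusters (9.8%, exact interval 3.26 to 21.4) and 13 of 101 muscle clusters (12.9%, 7.04 to 21) of Rbfox1. Over clusters of other genes it was in 8.47% in heart and 7.08% in muscle, and the differences did not pass (adjusted p = 0.79 and 0.0807, Fisher's exact tests). In Rbfox2 it was in 1 of 37 heart, 1 of 23 muscle and 0 of 9 myoblast clusters (adjusted p = 0.604, 1 and 1, Fisher's exact tests).

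The third family member, Rbfox3, had no cluster in any library. Genes for proteins of the LASR complex, with which Rbfox proteins associate in the nucleus, had CELF1 clusters on their RNA in both tissues. Clusters were on 8 of 8 genes in each tissue and on 5 in myoblasts. Of the 8037 genes with a cluster in any library, 6857 had one in heart, 5341 in muscle and 2754 in myoblasts. None of the 8 passed the test of heart against muscle. Their counts were small, the highest being 8 heart and 5 muscle clusters in Matr3, 5 and 8 in Hnrnpc, and 7 and 7 in Hnrnpul2, RNA-binding proteins of the nucleus. Their median log2 ratio of muscle to heart shares, with 0.5 added to each count, was 0.45, against 0.01 over all genes tested. All 8 had clusters in both tissues, while the genes tested include many with clusters in only 1 of them. The 2 medians are therefore of unlike sets, and a lean of these genes to muscle was not tested.

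Of 26 other splicing regulators 19 had a cluster in heart or muscle, as had 7625 of the 8037 genes with a cluster in any library. Among these regulators 1 was called. This was Mbnl1, a muscleblind splicing factor, higher in muscle with 53 clusters against 40 in heart (Fisher's exact test, adjusted p = 0.00885). Over all genes tested 0.852% were called in that direction, and 4.14% of those with 20 clusters or more. Celf2, a relative of CELF1, had 93 heart, 33 muscle and 17 myoblast clusters (adjusted p = 0.303, exact test). Qk, which encodes the Quaking protein, had 65, 38 and 2 (adjusted p = 1, exact test). The median log2 ratio of this list was 0.47.

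Of 13 genes known to be spliced under Rbfox control all had a cluster in heart or muscle, as had 7625 of the 8037 genes with a cluster in any library. Among the 13 genes 1 was called. This was Cacna1c, the pore subunit of the cardiac L-type calcium channel, higher in heart with 223 clusters against 6 in muscle (Fisher's exact test, adjusted p = 4.38e-33). In that direction 0.944% of all genes tested were called, and 6.7% of those with 20 clusters or more. Camk2d, a calcium-dependent kinase, had 55 heart and 14 muscle clusters (adjusted p = 0.138, exact test), and Mef2a, a myogenic transcription factor, 24 and 17 (adjusted p = 1, exact test). The median log2 ratio of this list was 0.28.

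The genes most like each member in how their clusters divided over library and 3′ UTR or other parts were found among 912 genes with 20 clusters or more in all. The measure was the sum of absolute differences of 6 shares, which is 0 for identical patterns. Nearest to Rbfox1 were Rev3l (0.0219), E130308A19Rik (0.0877), Picalm (0.149), Atp2a1 (0.175) and Bin1 (0.217). Rev3l, a DNA polymerase subunit, had 8 heart and 16 muscle clusters, and Atp2a1, the calcium pump of fast skeletal muscle, had 9 and 18. Nearest to Rbfox2 were Prrc2b (0.133), Neo1 (0.14), Fam120a (0.154), Med14 (0.161) and Wbp1l (0.168). All 10 had fewer clusters than the member they resembled, so their shares carry wider counting error.

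The libraries carried the marker genes of their sources in part. Ryr2, the cardiac calcium release channel, had 252 heart and 0 muscle clusters, and Ryr1, its skeletal counterpart, had 2 and 49. The heart marker Nppa and the myoblast marker Myf5 had none anywhere, while Ccnd1 had 11 in myoblasts, 5 in heart and 3 in muscle. Of 5 neuronal markers Rbfox3, Snap25, Syt1 and Map2 were at 0 in all libraries, and Stmn2 had 1 in heart and 1 in myoblasts. The muscle library held 0 clusters on these 5 genes. As Nppa had 0 in heart, a lack of clusters does not show that an RNA or a cell type was absent. Whether nerve cells added to any library was not tested.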

How the data were processed

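CELF1 CLIP-seq clusters of mouse heart, muscle and C2C12 myoblasts were analysed, 1 library each. Per the study's methods and labels, the authors collapsed identical reads, trimmed adapters, mapped uniquely to mm9 and splice junctions with Bowtie and TopHat, and called clusters in each library with a Poisson test given the length and expression of the gene, within RefSeq, Ensembl and UCSC gene boundaries. The deposited files give the start, end and Entrez identifier of each cluster. A deposited score column is 1e-06 in every line. Its meaning is not stated and it was not used. Versions: not given in the sources used here. The deposited files give no read numbers per cluster, so the 42263, 24844 and 5115 clusters in heart, muscle and myoblasts set the precision.

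Positions are counted from 1 on NCBIM37 (mm9), with GENCODE vM1 gene models. Of 8037 gene identifiers 7980 were matched. A cluster was placed by its midpoint in the 3′ UTR, coding exon, 5′ UTR or intron, in that order, of protein-coding transcripts. Distances to exons count the bases between. Overlaps used bedtools 2.31.1, sequences pysam 0.24.0, and tests scipy 1.17.1: two-sided Fisher's exact tests, Benjamini-Hochberg adjusted over all genes of a library pair for shares, or over 23 tests for gene part, sharing and motifs, with 0.05 as threshold. The share test was tested on simulated data. The members, gene lists and markers were chosen with earlier results of these data known. Named beside the members were the 3 genes of each list with most clusters and the 5 genes of nearest pattern. A further marker gene and a further sequence are not reported here. Single clusters, introns and exons were named after their values were seen. Alternatives were merging, a width minimum, other overlap rules, a wider motif window, other denominators and, for Rbfox1, the internal start.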

Additional observations from a re-analysis of the deposited data

How the results depend on the processing

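The limits are 1 library per source, no read numbers per cluster in the deposited files, and few clusters in myoblasts, so that a gene under the calling threshold there was not detectable. No paired analysis was possible because each group has 1 library. Of 81 alternative values over 29 results, 60 kept their direction and their side of the threshold, 8 fell short of it and 13 changed sign, none of the latter from a called value, and except where a construction is named the cause was not tested. Of the called results, the higher Rbfox1 share in muscle than heart and the higher sharing of heart Rbfox1 introns passed in every alternative run. No run of the sharing test counted the 14 heart clusters upstream of the annotated gene as intronic.

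Values are differences in percentage points. With clusters of at least 40 nt, which leaves 1 Rbfox2 cluster in myoblasts, the Rbfox1 share was 0.394 higher in muscle than in myoblasts and no longer passed. The Rbfox2 share became -0.0143 for muscle minus heart, 0.0447 for heart minus myoblasts and 0.0303 for muscle minus myoblasts, and among genes bound in both tissues -0.00515 for muscle minus heart. The Rbfox2 3′ UTR share became -52.9 for muscle minus myoblasts. Rbfox1 minus Rbfox2 in 3′ UTR share was -29.7 in heart and -25.4 in muscle, and neither passed. Rbfox1 intron sharing of muscle with heart was -12.5 against other genes and -12 at 50% overlap, and neither passed. Motif differences became -0.771 for GCATG in Rbfox1 heart clusters and, for TGT in Rbfox2, 1.24 in muscle and 6.09 in myoblasts. With clusters widened by 20 nt the TGT differences of Rbfox2 were 0.536 in muscle and 3.53 in myoblasts. With merged clusters the muscle minus heart 3′ UTR share became -2.62 in Rbfox1 and 11.5 in Rbfox2, and Rbfox1 minus Rbfox2 in heart was -25.1 and did not pass. With Rbfox1 counted from the internal start, chosen after seeing the data, the 3′ UTR share was -1.41 for muscle minus heart in Rbfox1, and -27.4 in heart and -28 in muscle for Rbfox1 minus Rbfox2. Neither of the last 2 passed (adjusted p = 0.073 and 0.0615, Fisher's exact tests).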
